A study of Mus musculus with 6 samples.

Results

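Nuclear speckle genes were followed in the prefrontal cortex of mice that carry a floxed allele of Gls1, the gene of a glutaminase, together with a Cre active in forebrain neurons. The group was chosen by name and holds 8 genes: Srrm1, Srrm2, Srrm3, Srrm4, Son, Pnisr, Luc7l3 and the noncoding Malat1. Of these, 7 have a row among the 21878 genes of the deposited tables, and all 7 passed the filter on low counts and were tested among 14440 genes. Malat1 was not analysed here. The genes were picked with their difference between the groups already known, so those differences are given as a description with no p-value.

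Bulk RNA sequencing covered all cells of the prefrontal cortex, without sorting, in 3 control and 3 Gls1_CamkIIaCre mice, 1 library each. Both groups carried CamKIIα-Cre, whose promoter limits recombination to CamKIIα-positive forebrain neurons. Controls (CamKIIαCre;Gls1+/+, labelled WT) were littermates with no floxed allele. The Gls1_CamkIIaCre mice, called mutants here, were mosaic heterozygotes (CamKIIαCre;Gls1+/flox), and homozygous floxed mice did not live. Age and sex are not given in the labels. In such whole tissue, fewer cells of a type and less RNA per cell cannot be told apart.

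Nuclear speckles are membraneless bodies between the chromosomes in which splicing factors and polyadenylated RNA gather next to active genes. Son and Srrm2 encode the large, mostly disordered proteins on which speckles are built. Many other speckle proteins carry stretches rich in serine and arginine (RS domains), and phosphorylation of these stretches frees splicing factors to act on nascent transcripts. In neurons, Srrm3 and Srrm4 add a further layer, since their proteins favour the inclusion of very short neuronal exons.

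The genes lie on chromosomes 4, 5, 11, 16 and 17 (GRCm38.p6, RefSeq). Srrm2 spans chr17:23790527-23824741 on the plus strand and Son chr16:91647824-91679192 on the plus strand. Srrm4 spans chr5:116439268-116592562 on the minus strand, and Srrm3 lies on the same chromosome at chr5:135806860-135874773 on the plus strand. Srrm1 spans chr4:135320484-135353277 on the minus strand, Pnisr chr4:21846657-21876475 on the plus strand and Luc7l3 chr11:94291073-94322329 on the minus strand. Their longest GENCODE M21 transcripts run from 3932 bases in Srrm3 to 8864 bases in Srrm2, each with 15 exons. Son, at 8731 bases, and Srrm4, at 7472 bases, are also long.

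Promoter sequences were found in the RefSeq table (GRCm38.p6) for 6 of the 7 measured genes, all but Pnisr. The 250 bases before the listed start, 5′ to 3′, are shown for the scaffold genes Srrm2 and Son, for Srrm4, whose difference was nearest in size to that of Srrm2, and for Srrm1, a family member with a smaller one. Capitals mark matches on either strand to the CCAAT box (CCAAT), the GC box (GGGCGG), the cAMP response element (TGACGTCA), the E-box (CACGTG), the TATA box (TATAAA) or an ETS motif (CCGGAAG).
Srrm2, chr17:23802937-23803186, plus strand: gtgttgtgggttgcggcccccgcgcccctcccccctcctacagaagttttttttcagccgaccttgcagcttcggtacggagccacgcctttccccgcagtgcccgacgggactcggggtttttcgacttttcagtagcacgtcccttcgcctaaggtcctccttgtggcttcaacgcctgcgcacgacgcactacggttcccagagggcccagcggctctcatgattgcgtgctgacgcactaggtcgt
Son, chr16:91647574-91647823, plus strand: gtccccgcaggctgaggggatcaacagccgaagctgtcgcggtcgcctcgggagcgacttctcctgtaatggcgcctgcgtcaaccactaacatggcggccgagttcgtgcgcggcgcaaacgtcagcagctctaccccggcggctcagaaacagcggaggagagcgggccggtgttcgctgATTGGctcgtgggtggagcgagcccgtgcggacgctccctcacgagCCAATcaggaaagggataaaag
Srrm4, chr5:116591818-116592067, minus strand: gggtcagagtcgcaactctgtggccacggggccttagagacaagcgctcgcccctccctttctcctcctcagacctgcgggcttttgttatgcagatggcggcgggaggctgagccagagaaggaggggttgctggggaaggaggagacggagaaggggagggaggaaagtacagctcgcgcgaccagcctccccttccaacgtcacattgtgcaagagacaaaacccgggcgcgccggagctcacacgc
Srrm1, chr4:135353147-135353396, minus strand: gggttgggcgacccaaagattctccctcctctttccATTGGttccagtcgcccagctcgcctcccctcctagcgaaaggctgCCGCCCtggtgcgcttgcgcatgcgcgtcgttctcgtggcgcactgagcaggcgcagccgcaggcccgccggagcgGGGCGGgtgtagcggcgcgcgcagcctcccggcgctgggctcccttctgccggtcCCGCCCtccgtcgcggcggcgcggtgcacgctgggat
These 4 windows are rich in CpG dinucleotides, with 23 in Srrm2, 28 in Son, 17 in Srrm4 and 33 in Srrm1, against a median of 6 over 27025 mouse promoters of the same length. None of the 6 motifs occurs in the Srrm2 or Srrm4 window. The Son window holds 2 CCAAT boxes, a motif present in 34.5% of all promoters. The Srrm1 window holds 1 CCAAT box and 3 GC boxes (the GC box is present in 32.9% of promoters). The other motifs occur in 1.62% (cAMP response element), 6.05% (E-box), 12.97% (TATA box) and 7.05% (ETS motif) of promoters. The Luc7l3 window has 26 CpG dinucleotides and 3 GC boxes, and the Srrm3 window 4 CpG dinucleotides and 1 CCAAT box. Only for Son is the listed start the first base of the RefSeq span. It lies inside the span by 12660 bases in Srrm2, 11246 in Srrm3, 745 in Srrm4, 366 in Luc7l3 and 131 in Srrm1, so the Srrm2 window lies within the gene, before a downstream start.

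Library totals lay between 17987807 and 19330961 counts. By edgeR 1190 of 14440 genes (8.24%) were called at an adjusted p under 0.05, 571 higher and 619 lower in mutants (429 and 749 with upper-quartile factors, 122 and 550 on log2(FPKM + 1), 126 and 607 on log2(FPKM + 0.1)). The 6 markers of excitatory neurons were all detected, with a summed level of 5990 to 6327 CPM (counts scaled to library size with TMM factors) in controls and 6094 to 6818 CPM in mutants. Markers of striatal neurons, from a neighbouring region, were detected too. By edgeR 6 of 8 fell, and their summed level was 413, 706 and 494 CPM in controls 1 to 3, against 154, 160 and 193 CPM in mutants 1 to 3. Oligodendrocyte markers (3 of 6 fell) summed to 3228 to 3825 CPM in controls and 2944 to 3372 CPM in mutants, inhibitory neuron markers (3 of 6 fell) to 1146 to 1250 and 969 to 1160 CPM, and astrocyte markers (2 of 6 fell) to 1936 to 1962 and 1833 to 1855 CPM. Microglia markers (2 of 6 fell) summed to 340 to 381 and 315 to 338 CPM, and endothelial markers (1 of 5 fell) to 138 to 153 and 133 to 140 CPM. No marker had a group mean of 0. The part of these markers in the differences of the speckle genes was not tested.

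Srrm2 and Son, the scaffold genes, were both higher in mutant cortex, Srrm2 by 26.2% and Son by 10.3%. Pnisr, by 16.1%, and Srrm4, by 21.7%, were higher as well. Srrm3, Srrm1 and Luc7l3 differed by 8.43%, 5.68% and 5.49% and were not called. All 7 log2 fold changes (mutant over control) were positive, as were 49.2% of those of all tested genes, with a median of 0.14 against -0.0024. Of the 7, 4 (Srrm2, Srrm4, Pnisr and Son) were among the genes called higher by edgeR and 0 were called lower, where 3.95% of all tested genes were called higher and 4.29% lower. The same 4 were called higher by DESeq2 (3.07% of tested genes) and by limma voom (3.23%). In 6 of the 7, all but Luc7l3, every mutant library lay above every control in CPM, as it did for 13.1% of tested genes. With tested genes divided by mean CPM into 10 bins of 1444, edgeR called more genes higher at higher levels. The share was 0.485% in bin 1, and 6.30%, 9.70% and 11.2% in bins 8, 9 and 10. Srrm3 and Srrm4 lie in bin 8, Srrm1 in bin 9, and Srrm2, Son, Pnisr and Luc7l3 in bin 10. The shares of all tested genes are thus not matched to the 7 genes in level. The genes were selected on this contrast, so nothing is read from these shares.

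**Figure D1:**
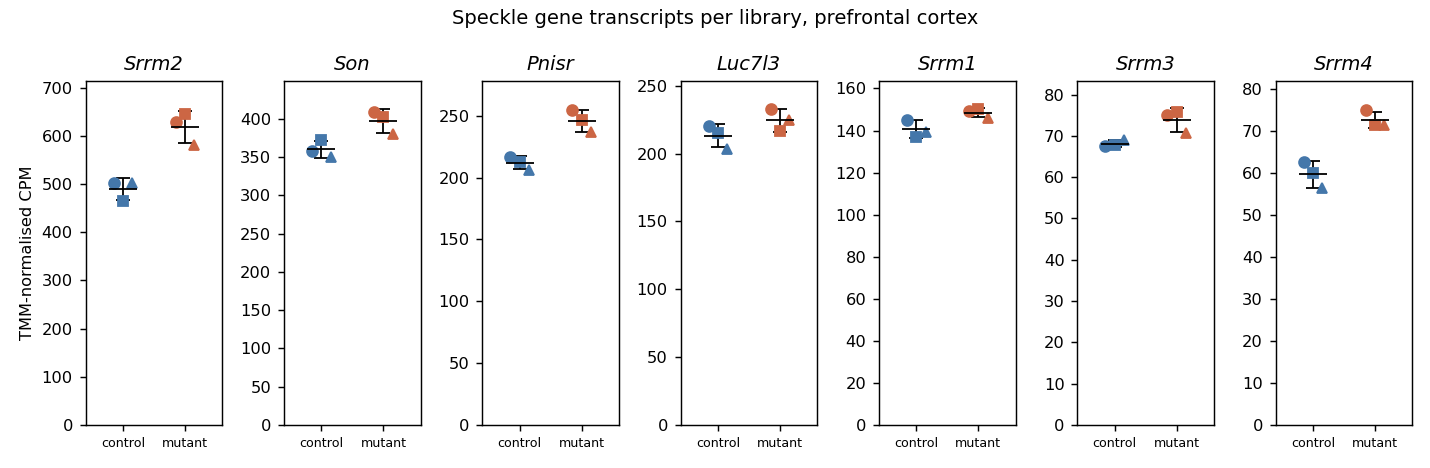
TMM-normalised CPM (vertical axis, from 0, scaled for each gene) of 7 speckle genes in control (blue) and Gls1_CamkIIaCre (orange, "mutant") libraries. Circles, squares and triangles are replicates 1, 2 and 3, and black bars give mean ± SD (n = 3). The groups are apart in each gene except Luc7l3, most widely in Srrm2.

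Below, group means carry SD over 3 libraries and log2 fold changes carry SE. Srrm2 (also SRm300), a scaffold that also sits in the active spliceosome, stood at 502, 465 and 503 CPM in controls 1 to 3, against 629, 645 and 581 CPM in mutants 1 to 3. The lowest mutant lay 77.9 CPM above the highest control, so the groups did not overlap. The means were 490.0 ± 21.9 CPM for controls and 619 ± 33.5 CPM for mutants, with a log2 fold change of 0.34 ± 0.044. Srrm2 counts, 8868 to 11747 per library, carry a counting error near 0.981%, below the coefficients of variation of 4.47% among controls and 5.42% among mutants. Its log2 fold change exceeded that of 97.1% of tested genes and stayed among the calls under each of 17 alternative settings, at 0.26 to 0.38.

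Son, the other scaffold, whose loss disturbs speckle structure, had 359, 372 and 351 CPM in controls 1 to 3, against 409.8, 403 and 380.2 CPM in mutants 1 to 3. The gap was narrow, with 7.96 CPM between control 2 and mutant 3. Mean Son levels of 360.5 ± 10.97 CPM for controls and 398 ± 15.5 CPM for mutants gave a log2 fold change of 0.14 ± 0.040. The Son call was lost when control 1, control 3, mutant 1 or mutant 2 was left out, at log2 fold changes of 0.14, 0.12, 0.12 and 0.13. It was also lost on both FPKM scales (0.12 and 0.13), with upper-quartile factors (0.12) and after correction for length (0.072) or for length and GC content (0.069).

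The Son locus holds other genes, and the use of strand in counting is not given, so reads from overlapping genes cannot be told apart. Donson shares 12337 bases of its span with Son on the opposite strand and averaged 19.6 ± 0.849 CPM in controls and 19.6 ± 0.947 CPM in mutants, a small level beside that of Son. At the end of Srrm2, Elob (listed as Tceb2) overlaps by 2 bases on the opposite strand. Elob fell, from a mean of 67.4 ± 1.80 CPM among controls to 58.9 ± 1.37 CPM (edgeR adjusted p = 0.0189, log2 fold change -0.20 ± 0.050), the opposite direction to Srrm2. The noncoding genes Gm52285 and Srrm4os, which overlap Srrm2 and Srrm4, were not analysed here.

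Pnisr encodes an RS-rich protein that binds pinin, a protein of speckles. It stood at 217, 213 and 206 CPM in controls 1 to 3, against 255, 246 and 237 CPM in mutants 1 to 3. All mutants lay above all controls, by at least 20.5 CPM. Mean Pnisr levels were 212 ± 5.17 CPM for controls and 246 ± 8.90 CPM for mutants (log2 fold change 0.22 ± 0.040). Among the 17 settings the call was lost only on the FPKM scales, both at a log2 fold change of 0.14.

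Luc7l3, a protein of the U1 step that takes part in choosing the 5′ splice site, had 220.0, 215 and 204 CPM in controls 1 to 3, against 233, 216 and 225 CPM in mutants 1 to 3. Its groups overlapped, since mutant 2 lay below control 1. The means, 213 ± 8.44 CPM for controls and 225 ± 8.47 CPM for mutants, differed by a log2 fold change of 0.077 ± 0.042. Luc7l3 was called in none of the 17 settings.

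Srrm1, the splicing coactivator SRm160, which joins exon junction complexes, stood at 145, 137 and 139 CPM in controls 1 to 3, against 149, 150.3 and 146 CPM in mutants 1 to 3. The groups nearly touched, with 0.787 CPM between mutant 3 and control 1. Mean Srrm1 levels were 141 ± 4.27 CPM for controls and 148 ± 2.22 CPM for mutants (log2 fold change 0.080 ± 0.041), and no setting called it. The value was 0.040 after the length correction and 0.035 on log2(FPKM + 1).

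Srrm4, also known as nSR100, is the neuronal paralogue that drives the inclusion of microexons. It had 62.6, 60.0 and 56.3 CPM in controls 1 to 3, against 74.9, 71.4 and 71.5 CPM in mutants 1 to 3, with no overlap. Its means of 59.6 ± 3.18 CPM for controls and 72.6 ± 1.97 CPM for mutants gave a log2 fold change of 0.28 ± 0.052. The Srrm4 call was lost only on the FPKM scales, at 0.21 with a pseudocount of 1 and 0.24 with 0.1.

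Srrm3, the other neuronal paralogue, had 67.5, 67.9 and 69.0 CPM in controls 1 to 3, against 75.1, 75.8 and 70.7 CPM in mutants 1 to 3. Mutant 3 lay only 1.66 CPM above control 3, and the other mutants were further off. Mean Srrm3 levels were 68.1 ± 0.779 CPM for controls and 73.9 ± 2.81 CPM for mutants, with a log2 fold change of 0.12 ± 0.049. No setting called it, and the value was 0.037 on log2(FPKM + 1) and 0.054 after the length correction.

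Levels can be compared between genes only per length, and the order depended on the length used. The FPKM tool and its gene lengths are not given, and the length that counts and FPKM imply ranged from 1.21 times the longest GENCODE transcript in Luc7l3 to 3.30 times in Srrm3. On both scales, deposited FPKM and CPM per kilobase of the longest GENCODE transcript, the neuronal Srrm3 and Srrm4 were below the 5 broadly expressed genes, and Srrm1 was the lowest of those 5, in every library.

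In deposited FPKM, Luc7l3 was highest among controls at 33.5 ± 1.59 FPKM, followed by Srrm2 at 28.3 ± 1.26, Son at 24.6 ± 0.894, Pnisr at 22.1 ± 0.724 and Srrm1 at 15.8 ± 0.807 FPKM. No neighbours among these 5 overlapped in the controls. Srrm3, at 5.40 ± 0.0662 FPKM, and Srrm4, at 5.19 ± 0.302 FPKM, overlapped. Per GENCODE kilobase the control order was Srrm2 at 55.3 ± 2.47 CPM per kilobase, Pnisr at 46.6 ± 1.14, Son at 41.3 ± 1.26, Luc7l3 at 40.6 ± 1.61, Srrm1 at 30.9 ± 0.941, Srrm3 at 17.3 ± 0.198 and Srrm4 at 7.98 ± 0.426 CPM per kilobase. On that scale only Son and Luc7l3 overlapped as neighbours, and the Luc7l3 mean stood below those of Srrm2, Pnisr and Son. Luc7l3 was 6.46 times Srrm4 in mean control FPKM and 5.09 times per GENCODE kilobase.

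Among mutants, Srrm2 moved up against Luc7l3 in FPKM. It stood at 29.2, 26.8 and 28.7 FPKM in controls 1 to 3, against 35.8, 36.1 and 32.3 FPKM in mutants 1 to 3. Luc7l3, at 37.0, 35.1 and 34.8 FPKM in mutants 1 to 3, overlapped it, and Srrm2 was the higher in mutant 2. Per GENCODE kilobase Srrm2 was already highest among controls and stayed so among mutants, at 69.8 ± 3.78 CPM per kilobase against 42.8 ± 1.61 for Luc7l3. Srrm4, at 6.33, 6.07 and 6.03 FPKM, was above Srrm3, at 5.73, 5.73 and 5.25 FPKM, in all 3 mutants. Per GENCODE kilobase it was below Srrm3 there too, at 9.72 ± 0.263 against 18.8 ± 0.714 CPM per kilobase, so that order also rests on the length used.

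**Figure D2:**
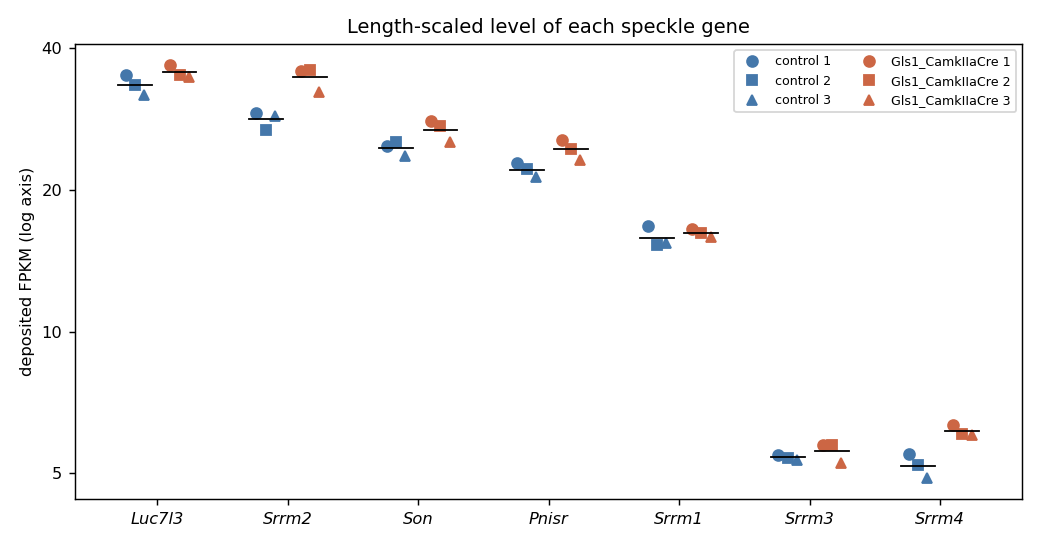
Deposited FPKM (log axis) of each speckle gene in control (blue) and Gls1_CamkIIaCre (orange) libraries, with circles, squares and triangles for replicates 1, 2 and 3 and black lines for means. Srrm2 and Luc7l3 overlap in the mutants, and Srrm3 and Srrm4 lie between 4.88 and 6.33 FPKM. Neither pair overlaps per kilobase of GENCODE transcript.

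Ratios within a library compare the members with each other. For Srrm2 over Son the FPKM ratio was 1.18, 1.06 and 1.22 in controls 1 to 3, against 1.28, 1.32 and 1.28 in mutants 1 to 3. For Srrm4 over Srrm3 it was 1.00, 0.965 and 0.913 in controls 1 to 3, against 1.10, 1.06 and 1.15 in mutants 1 to 3. Neither of these overlapped between the groups, nor did Srrm2 over Srrm1 or Srrm2 over Luc7l3. Pnisr over Luc7l3 did overlap, at 0.649, 0.663 and 0.668 in controls 1 to 3, against 0.692, 0.698 and 0.667 in mutants 1 to 3. These 5 ratios come from the contrast on which the genes were picked and are a description.

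On the log2(FPKM + 1) scale the log2 fold changes were smaller than from counts for all but Luc7l3. Srrm2 had 0.29, Son 0.12, Pnisr 0.14 and Luc7l3 0.086, and only Srrm2 was called (0.845% of tested genes were called higher on that scale). In FPKM 3 of 7 genes (Srrm2, Srrm4 and Pnisr) did not overlap between the groups, where 9.67% of tested genes had all mutants above all controls. The FPKM of all genes summed to 238924 to 243144 in mutants and 249602 to 252272 in controls.

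**Figure D3:**
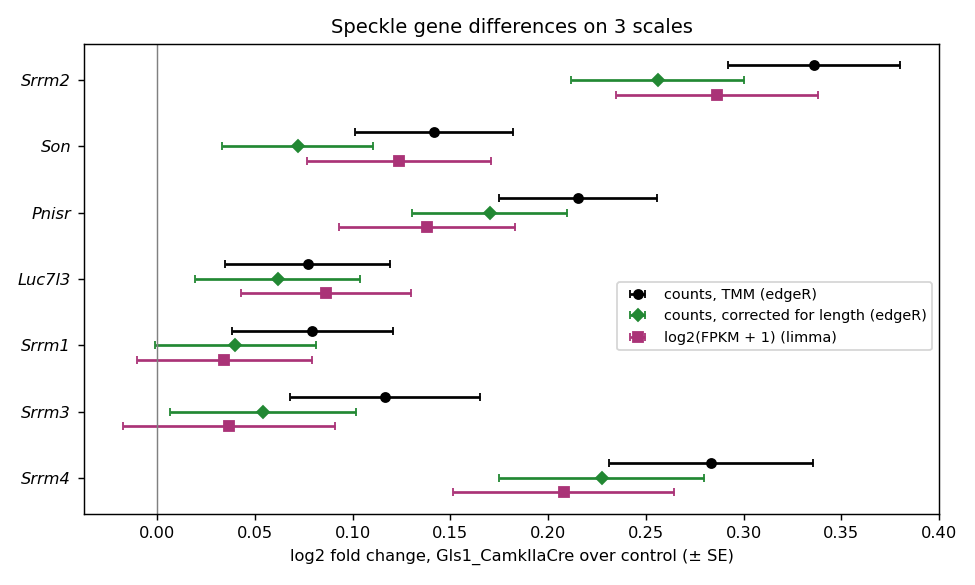
Log2 fold change (horizontal axis, Gls1_CamkIIaCre over control, with SE bars) of each speckle gene from counts, from counts corrected for transcript length and from log2(FPKM + 1). All point values lie above 0, and Srrm2 is the highest on each scale.

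The difference between the groups moved with transcript length across all tested genes. Tested genes were ordered by their longest GENCODE transcript and divided into 10 bins of 1397. The median log2 fold change went from -0.095 in the shortest bin (88 to 1521 bases) to 0.066 in the longest (6957 bases or more). In the shortest bin 0.644% of genes were called higher and 9.74% lower, against 13.2% and 2.29% in the longest. Srrm2, Srrm4 and Son belong to the longest bin, whose interquartile range was -0.0079 to 0.13. Srrm2 and Srrm4 lay well above that range, and Son, at 0.14, just over its upper end. Srrm1 and Pnisr belong to bin 7 (median 0.017), Luc7l3 to bin 8 (0.022) and Srrm3 to bin 6 (0.0025). The bins differ when genes are ordered by the length implied by counts and FPKM. Srrm3 then joins Srrm2 and Son in the longest bin (median 0.069). Srrm4 and Pnisr are then in bin 9 (0.037), Srrm1 in bin 8 (0.026) and Luc7l3 in bin 7 (0.015).

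With each library corrected for its trend on length, 3 of the 7 genes were called higher, beside 2.08% of tested genes. These were Srrm2 at a log2 fold change of 0.26, Srrm4 at 0.23 and Pnisr at 0.17. That correction used the length implied by counts and FPKM. Length and GC content were also corrected together, with the length and GC of the longest GENCODE transcript, so the corrections differ in more than GC. The same 3 were called (2.47% of tested genes were higher), at 0.26, 0.22 and 0.20. Son was not called in either case.

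**Figure D4:**
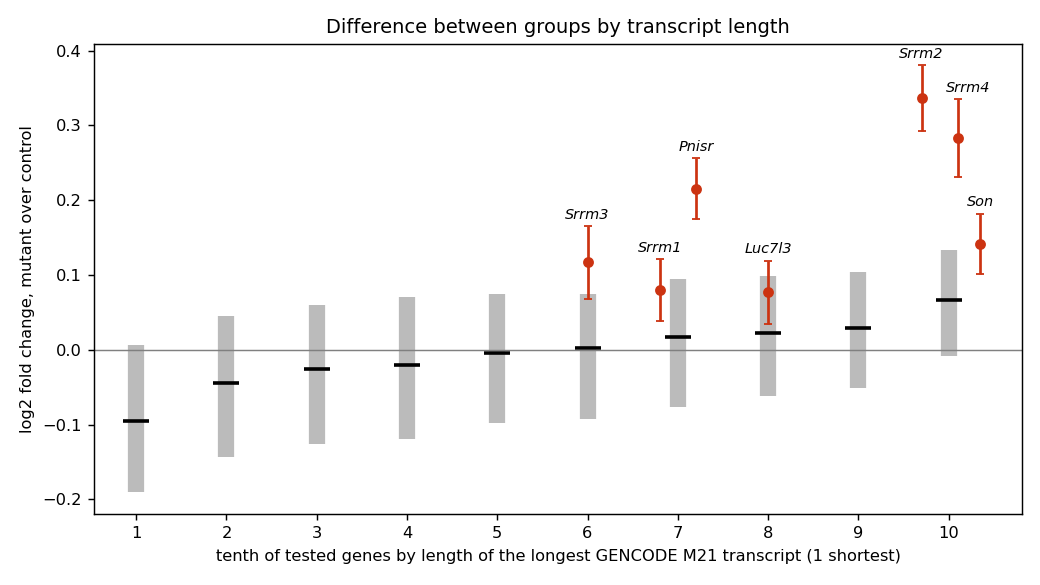
Log2 fold change (vertical axis, Gls1_CamkIIaCre over control) in 10 bins of tested genes ordered by longest GENCODE M21 transcript (horizontal axis, bin 1 shortest). Black marks are medians, grey bars interquartile ranges, and red points the speckle genes with SE. The medians climb from -0.095 to 0.066, and Srrm2, Srrm4 and Son sit in the longest bin.

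This list and the other gene lists below were chosen with earlier results of these data known, so their counts and p-values are a description. The shares of all tested genes given beside them are not matched for level, and genes of like mean CPM were not compared. Among 25 further speckle and RS-related proteins, 6 rose and 0 fell by edgeR (3.95% and 4.29% of all tested genes). Of the 25, 20 had a positive log2 fold change, as did 49.2% of all tested genes. The median was 0.087, and 0.053 after the length correction. Bclaf1, an RS-related regulator of splicing and transcription, rose from 203 ± 6.83 CPM among controls to 237 ± 2.02 CPM among mutants (edgeR adjusted p = 0.00173, log2 fold change 0.22 ± 0.039). Sugp2, with SURP and G-patch domains, rose by a log2 fold change of 0.21 and Zc3h13, which holds the RNA methylation complex in the nucleus, by 0.20. Rsrp1, an RS-rich protein, rose by 0.14, Acin1, a partner of the exon junction complex, by 0.14, and Ppig, a cyclophilin with an RS domain, by 0.15. Over the 17 settings the call was lost in 13 for Acin1 and for Ppig, 9 for Zc3h13, 5 for Rsrp1, 3 for Sugp2 and 0 for Bclaf1. Rbm39 averaged 339.5 ± 9.16 CPM in controls and 339 ± 7.37 CPM in mutants and did not pass. With DESeq2, limma voom, upper-quartile factors or the non-robust fit, 4 of the 25 were called. The count of 6 became 2 when control 1, control 2 or mutant 2 was left out, 3 when mutant 3 was, 3 after the length correction, 2 after the length and GC correction and 1 on either FPKM scale.

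Classical SR proteins, which bind exonic enhancers and are stored in speckles, had a median log2 fold change of 0.0032, between -0.014 and 0.016 over the 17 settings. Of 11 genes (Srsf1 to Srsf7 and Srsf9 to Srsf12), 0 were called by edgeR, DESeq2 or limma voom. Of all tested genes edgeR called 8.24%, so 0 calls among 11 genes is near that share. None had an unadjusted edgeR p under 0.05, where 22.4% of all tested genes did. Srsf9 had the smallest p (edgeR adjusted p = 0.258), with means of 31.2 ± 1.04 CPM for controls and 28.4 ± 1.88 CPM for mutants. The difference between SR proteins and the other speckle genes was not tested.

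Among 11 kinases of RS domains, 2 rose and 0 fell by edgeR (3.95% and 4.29% of all tested genes), with a median log2 fold change of 0.039. Prpf4b, a kinase of the spliceosome, rose from 126 ± 4.07 CPM among controls to 141 ± 5.33 CPM (edgeR adjusted p = 0.0301), and Srpk2, an SR protein kinase, from 302 ± 10.8 to 332 ± 14.4 CPM (edgeR adjusted p = 0.0479). The count became 0 when control 1, control 2, mutant 1 or mutant 2 was left out, 1 when mutant 3 was, and 0 after either length correction or on FPKM. Of the Clk kinases, which release SR proteins from speckles, Clk1 and Clk4 had log2 fold changes of 0.098 and 0.039. Clk2 and Clk3 had -0.086 and -0.12, and none of these kinases passed.

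In the catalytic core of the spliceosome, where Srrm2 protein is also found, 2 of 12 genes rose and 0 fell by edgeR (3.95% and 4.29% of all tested genes), with a median log2 fold change of 0.058. Snrnp200, the helicase that unwinds U4 from U6, rose from 121 ± 5.32 CPM among controls to 142 ± 7.02 CPM (edgeR adjusted p = 0.00467). Its call was kept without each library in turn and lost on FPKM. Crnkl1, a protein bound to the Prp19 complex, rose from 21.9 ± 0.840 to 25.7 ± 0.502 CPM (edgeR adjusted p = 0.0467), a log2 fold change of 0.23. That call was lost without any 1 of the 6 libraries (0.20 to 0.26) and after either length correction, where the log2 fold change was 0.23 and 0.24. Prpf8, the central protein of the core, had a log2 fold change of 0.099 and did not pass.

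Around Luc7l3, 0 of 9 U1 and Luc7-like genes were called by edgeR, DESeq2 or limma voom, and 1, Snrnp70, had an unadjusted edgeR p under 0.05. Over all tested genes, edgeR called 8.24% in either direction, and 22.4% had an unadjusted p under 0.05. In a list this short, 0 calls is near the share called. Snrnp70, the core U1 protein, averaged 172 ± 10.1 CPM in controls and 188 ± 8.30 CPM in mutants, and passed when control 1 was left out. The median log2 fold change of the 9 was 0.028, and -0.0098 and -0.010 on the FPKM scales. On those scales the median of all tested genes was -0.023 and -0.031. The paralogues Luc7l and Luc7l2 each had a log2 fold change of -0.042, against 0.077 for Luc7l3. Around Srrm1, 0 of 6 exon junction genes were called by the same tools and 0 had an unadjusted edgeR p under 0.05, beside the same shares of all tested genes. Among 6 genes, 0 calls is also near the share called. The median log2 fold change of the 6 was -0.083. Magohb, of smallest p, averaged 4.91 ± 0.153 CPM in controls and 4.03 ± 0.357 CPM in mutants.

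Around Srrm3 and Srrm4, 0 of 9 neuronal splicing regulators were called by edgeR, DESeq2 or limma voom and 0 had an unadjusted edgeR p under 0.05. Of all tested genes, edgeR called 8.24%, so 0 calls in a list this short is near that share. The median log2 fold change of the 9 was 0.043. It was negative after the length correction (-0.014, where Rbfox1 was called lower) and on FPKM (-0.011 and -0.0086). The median of all tested genes was -0.0053 after that correction, and -0.023 and -0.031 on the FPKM scales. Ptbp3, of smallest p among the 9, averaged 46.4 ± 2.31 CPM in controls and 49.6 ± 0.768 CPM in mutants. Rest, the repressor of neuronal genes whose own splicing Srrm4 redirects, averaged 3.47 ± 1.16 CPM in controls and 3.65 ± 0.522 CPM in mutants.

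Paraspeckles are a neighbouring nuclear body. Of 8 paraspeckle proteins 0 were called by edgeR, DESeq2 or limma voom, near the 8.24% of all tested genes that edgeR called. In 1 (Hnrnpk) the unadjusted edgeR p was under 0.05, and the median log2 fold change was 0.025 (-0.0075 to 0.059 over the 17 settings). Hnrnpk averaged 368 ± 7.53 CPM in controls and 392 ± 5.23 CPM in mutants. Of 9 nuclear long noncoding RNAs listed beside Malat1, only Snhg11 was analysed here. It rose from 1541 ± 82.7 CPM among controls to 1741 ± 16.4 CPM (edgeR adjusted p = 0.0111), a log2 fold change of 0.18. That call was lost without control 2 (0.14), without mutant 2 (0.18), with length and GC content corrected (0.14) and on either FPKM scale (0.19).

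**Figure D5:**
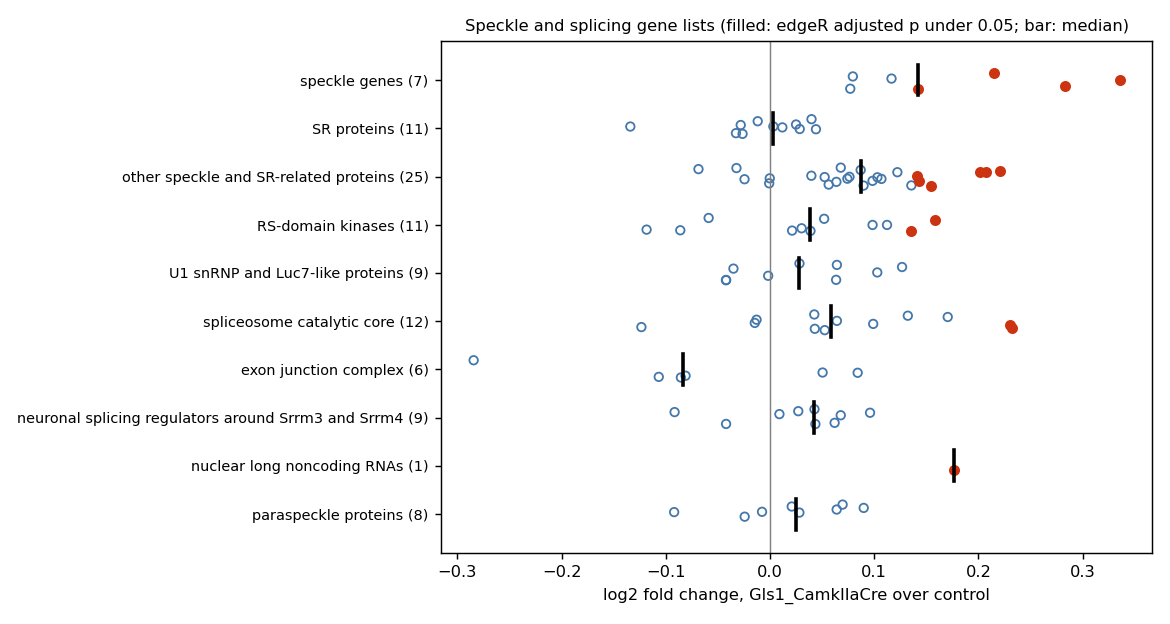
Log2 fold change (horizontal axis, Gls1_CamkIIaCre over control) of each gene in the speckle group and in 9 lists of speckle and splicing genes, with the number of tested genes in brackets. Filled red points passed at an edgeR adjusted p under 0.05, open points did not, and black bars are medians. SR proteins lie around 0, and 20 of 25 other speckle and RS-related genes lie above it, as do 49.2% of all tested genes. The difference between the lists was not tested.

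The deposited annotation marks 301 genes with the term nuclear speck, among them 3 of the 7 (Son, Pnisr and Luc7l3). Of 280 other tested genes with the term, 18 were higher (6.43%) and 5 lower (1.79%), beside 3.95% and 4.29% of all tested genes. Their median log2 fold change was 0.027. That of the 7 speckle genes was 0.14, but those were picked on this contrast, so nothing is read from the gap.

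Genes near to Srrm2 in profile were found by the root-mean-square difference of log2 CPM over the 6 libraries, each gene centred on its own mean. That measure includes the difference between the groups, so like log2 fold changes follow from the choice of genes. Among the nearest were Leng8 (0.033), Kcng1 (0.043), Cd46 (0.045) and Tcof1 (0.046), with log2 fold changes from 0.28 in Kcng1 to 0.37 in Tcof1. Their control means ran from 10.2 CPM in Cd46, which was not called, to 177 CPM in Leng8, against 490.0 CPM for Srrm2. Nearest to Son were Bcorl1 (0.011), Rrp9 (0.013), Top3b (0.018), Rbpj (0.019) and Wash1 (0.019), with log2 fold changes from 0.12 to 0.16. These 5 neighbours of Son had control means of 14.3 to 35.1 CPM, against 360.5 CPM for Son, and were not called.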

How the data were processed

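Total RNA of the prefrontal cortex of 6 mice was extracted with TRIzol and sequenced, per the labels' protocols, from SMARTer mRNA libraries. The authors deposited whole-number counts per gene and a table of the same genes in FPKM (fragments scaled for length and library size). The build was, per the submitters' processing notes, GRCm38 (mm10). The sources used here do not name the aligner, the counter, the strand setting or the FPKM tool. Library totals were 17987807 to 19330961 counts.

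Counts were fitted by edgeR 4.0.16 (R 4.3.3) with TMM factors, filterByExpr and a robust quasi-likelihood fit without covariates. P-values were adjusted by Benjamini-Hochberg over 14440 genes, and a gene was called at an adjusted p under 0.05. SE is the log2 fold change divided by the root of the F statistic. The common biological coefficient of variation was 4.75%. The procedure was tested on simulated counts. Alternatives were DESeq2 1.42.0, voom (limma 3.58.1), edgeR with DESeq2 or upper-quartile factors, edgeR without the count filter, a replicate block, a fit without robust shrinkage, limma on FPKM with pseudocounts of 1 and 0.1, a correction for length (a spline of 4 degrees of freedom per library, on the length implied by counts and FPKM) and leaving out each library. The correction for length and GC content together used the longest GENCODE transcript (found for 96.7% of tested genes) in place of the implied length. That correction, levels per GENCODE length and the annotation term nuclear speck were added after the data were seen.

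The genes and lists were chosen with earlier results of these data known. Named genes were the members, the called genes of each list or else the one of smallest p, the 5 profiles nearest to Srrm2 and to Son (mean of 10 CPM or higher, without gene models and pseudogenes) and overlapping genes. Rbm39, Clk1, Clk2, Clk3, Clk4, Prpf8, Luc7l, Luc7l2, Rest and Rbfox1 were named after their values were seen. The targeted gene and some others that this rule names are not reported here.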

Additional observations from a re-analysis of the deposited data

How the results depend on the processing

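Over 17 alternative settings, none of 23 log2 fold changes followed (7 speckle genes and 16 list genes) changed direction. The 16 were the called genes of each list or the one of smallest p, and the 7 were picked on this contrast. A kept direction therefore says little about other genes, and Rbfox1, outside this pick, did change direction after the length correction. The 4 calls among 7 speckle genes became 1 on log2(FPKM + 1) and 1 on log2(FPKM + 0.1), and 3 to 4 without 1 library. Over all genes the 1190 calls became 672 and 733 on the FPKM scales and 763 after the length correction, and 415 to 1098 without 1 library. In the longest of 10 bins by implied length, 219 calls became 50 and 53 on FPKM, 104 after the length correction and 125 after the length and GC correction, and 80 to 222 without 1 library. The 6 calls among other speckle and RS-related genes became 4 with DESeq2, limma voom, upper-quartile factors or the non-robust fit. They became 1 on either FPKM scale, 3 and 2 after the corrections, and 2 to 5 without 1 library. The 2 kinase calls became 1 with limma voom, upper-quartile factors or the non-robust fit, 0 on both FPKM scales and after both corrections, and 0 to 2 without 1 library. The 2 calls in the catalytic core became 1 with DESeq2, limma voom, upper-quartile factors and both corrections, 0 on FPKM, and 1 to 2 without 1 library. The single noncoding RNA call became 0 on FPKM and with length and GC content corrected, and 0 to 1 without 1 library. The 0 calls among neuronal splicing regulators became 1 after the length correction, Rbfox1, whose log2 fold change went from 0.0090 to -0.14. The 0 calls among U1 and Luc7-like genes lay between 0 and 1 without 1 library. The control ratio of Luc7l3 to Srrm4, 6.46, was 6.54 with counts per implied length and 5.09 with counts per GENCODE length. Where a library was left out, fewer samples were fitted. For the other changes the cause was not tested.

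Same-numbered libraries did not all deviate together, with correlations across genes of 0.139, -0.026 and 0.140 for numbers 1, 2 and 3. Those of numbers 1 and 3 were the highest, since differently numbered libraries had -0.17 to 0.047. Control 2 correlated best with mutant 3, at 0.036. Whether same-numbered libraries were pairs cannot be settled from these values. The main fit left the numbers out. With the replicate block, 1758 of all genes were called, 1 of the U1 and Luc7-like genes (Snrnp70), 7 of the other speckle and RS-related genes and 3 of the catalytic core, and the counts for the 7 speckle genes and the other lists did not change.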
